A study of Mus musculus with 6 samples.

Results

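The Rab GTPases are the small GTPases that direct membrane traffic, and here they were the genes whose symbol in the array annotation is Rab followed by a number and at most one letter from a to d. Of 19700 genes tested, 57 were Rab genes by this rule, read from 74 clusters that carry 1 such symbol alone. A cluster is the group of probes for 1 transcribed region, and where a Rab gene had several, as 11 did, the brightest cluster on average was taken. Rab26 and Rab39 share their clusters with another gene and were left out. Each Rab was assigned to a compartment by a list. There were 6 early endosome, 4 late endosome, 9 recycling, 13 Golgi and 6 synaptic vesicle Rabs, and 19 were set apart as other Rabs. The synaptic vesicle list also took in Rab3d and Rab37, which are better known from other secretory vesicles. The study compared 3 control arrays, genotype Atg7+/+, with 3 conditional knockout (cKO) arrays, genotype Atg7f/f, all from C57BL/6 mice at P16 and all carrying a Cre driver. The sample labels write NexCre, a name used for a driver of excitatory neurons of the forebrain, while the paper names Nestin-Cre, a driver of neural precursors. The labels give the tissue as brain and the paper as cerebral cortex. Total RNA was hybridised to 1 Affymetrix mouse exon array per sample. Nothing in the sources used here says whether each array holds RNA of 1 animal, so p-values measure only the spread between these samples.

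A Rab switches between a GDP-bound form held in the cytosol by GDP dissociation inhibitors and a GTP-bound form on a membrane, where it recruits effectors such as tethers, motors and fusion factors. Exchange factors load the GTP, GTPase-activating proteins end the active state, and prenyl groups at the tail of the protein anchor it. Each Rab marks a membrane, and early endosomes exchange RAB5 for RAB7 as they mature. Autophagy, for which ATG7 is essential, ends when autophagosomes fuse with late endosomes and lysosomes, a step that needs RAB7, and neurons also depend on Rabs for synaptic vesicles and for traffic along axons.

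The arrays report a log2 signal per gene, and the correlation between any pair of arrays lay between 0.980 and 0.990. Atg7, the targeted gene, read by a cluster that it shares with Camsap1, was at 6.58, 6.54 and 6.39 (controls) against 6.12, 6.03 and 5.90 (cKO), so every cKO array lay below every control array, with a difference of -0.48 (95% interval -0.70 to -0.27 from limma). Xist, the RNA that coats an inactive X, reached 9.51 in cKO replicate 1, while the remaining 5 arrays had 3.48 to 4.15. Both arrays numbered 1, control replicate 1 and cKO replicate 1, stood apart from the other 4 on the first principal component (36.0% of the variance). On the second (18.3%) the controls were at 14.3, 6.13 and 10.1 and the cKO arrays at -12.7, -13.6 and -4.15, without overlap. Of the marker lists, all 5 interneuron, all 4 striatal and all 5 myelin genes had a lower mean in the cKO arrays, and all 4 astrocyte genes a higher one. Of the other lists, 3 of 5 genes of neurons at large, 2 of 4 of excitatory neurons, 3 of 5 of microglia, 4 of 5 of endothelium and 2 of 4 of hypothalamus had a higher mean. In the excitatory list the 2 higher genes were Tbr1 at 0.0048 and Cux2 at 0.033, and the 2 lower were Slc17a7 at -0.21 and Neurod6 at -0.44. Neurod6 (unadjusted p = 0.0243 from limma) was lower in every cKO array, as were 4.24% of all genes. The mean log2 signal of the 4 striatal genes ranged from 6.96 to 8.05 in the controls and from 6.16 to 7.00 in the cKO arrays. Those of the 5 interneuron and 5 myelin genes ranged from 8.02 to 8.29 and from 8.43 to 8.75 in the controls, and from 7.84 to 8.13 and from 8.09 to 8.55 in the cKO arrays. Each of these 3 lists overlapped between the groups. The mean of the 4 astrocyte genes ranged from 7.68 to 7.76 in the controls and from 7.76 to 7.88 in the cKO arrays, just without overlap, and that of the 5 genes of neurons at large from 9.14 to 9.22 and from 9.04 to 9.21. Fewer cells of a type and less RNA per cell cannot be told apart in such samples, and the part of these markers in the values below was not tested.

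The Rab genes as a family lay close to 0. Of the 57, 29 had a higher and 28 a lower mean in the cKO arrays, and the median difference, cKO minus control, was 0.0019 on the log2 scale, beside -0.0059 over all genes tested. The largest positive difference was 0.20 (Rab31) and the largest negative one -0.38 (Rab27b), folds of 1.15 and 0.770 of the control level. For 40 of the 57 the difference was under 0.1 in size, and for 3 it was over 0.3. The 95% interval from limma lay within -0.5 to 0.5 for 50 of the 57 (87.7%), beside 80.9% of all genes tested. The Rabs varied within a group about as much as other genes, with a median SD of 0.114 beside 0.128. No Rab passed an adjusted p of 0.05 from limma, nor did any of the 19700 genes (0%), and the adjusted p of every Rab was 0.9995. Values per array are given below in the order of the replicate numbers, controls first. At an unadjusted p under 0.05 from limma there were 0 Rabs higher (2.09% of all genes) and 2 lower, Rab27b and Rab7b (1.87% of all genes), which made 3.51% of the family beside 3.96% of all genes in either direction. An ordinary linear model without moderation gave 1 higher (Rab2b) and the same 2 lower, but the shares just given are not from that model. The groups did not overlap for 7 Rabs (12.3%), beside 8.40% of all genes. The 7 were 4 that were higher in every cKO array (Rab2b, Rab31, Rab7 and Rab8a, beside 4.15% of all genes) and 3 that were lower in every cKO array (Rab27b, Rab7b and Rab28, beside 4.24%). These shares were near the background and are no result about the family.

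**Figure D1:**
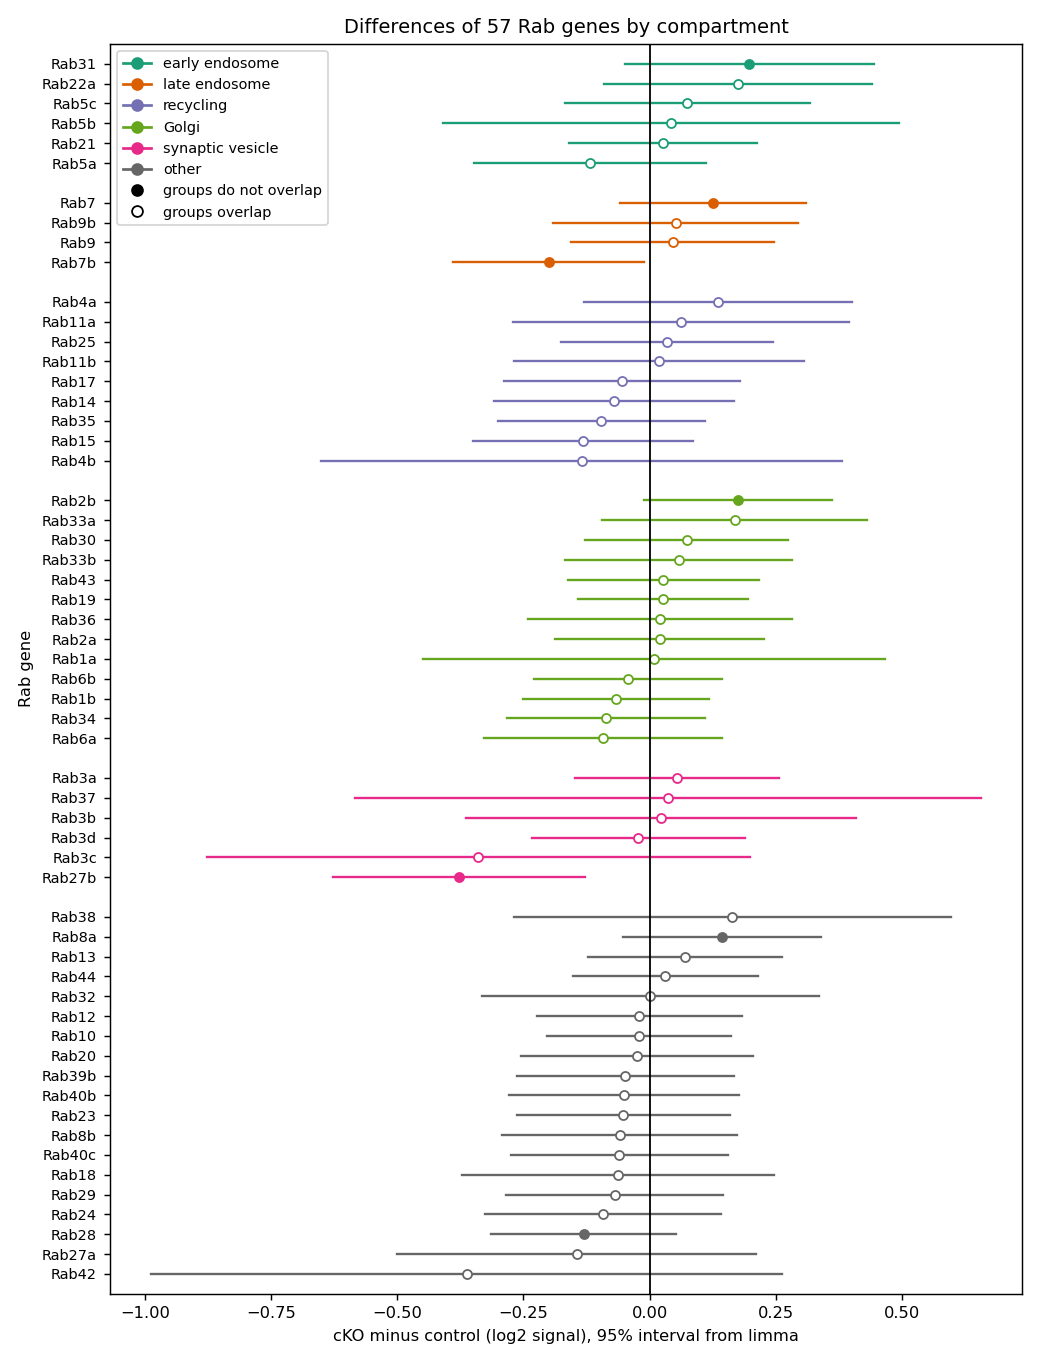
Difference of each of 57 Rab genes, cKO minus control in log2 signal (x axis), with its 95% interval from limma (line), ordered within compartments (colours). Filled points mark the 7 genes whose 3 cKO and 3 control arrays do not overlap, and only the intervals of Rab27b and Rab7b leave out 0.

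**Figure D2:**
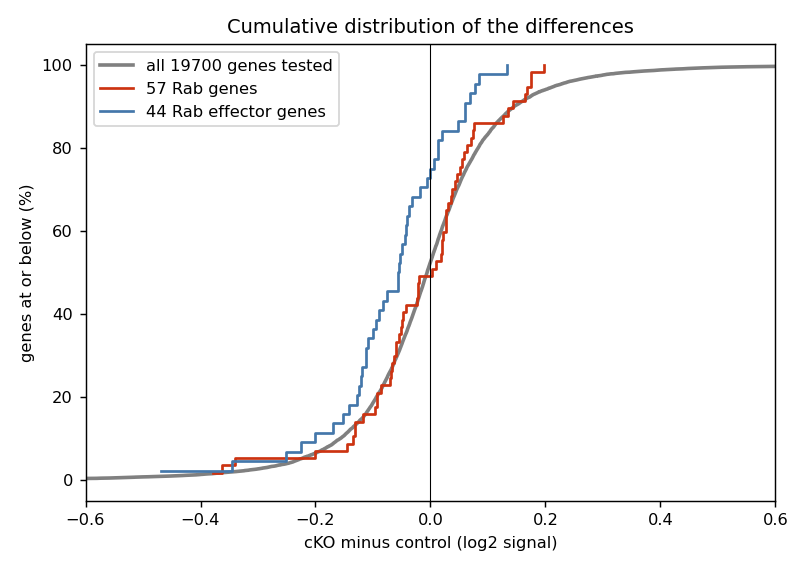
Cumulative share of genes (y axis, %) at or below each difference, cKO minus control in log2 signal (x axis), for all 19700 genes tested, the 57 Rab genes and the 44 Rab effector genes. The Rab curve runs along that of all genes, with medians of 0.0019 and -0.0059, and the middle of the effector curve lies to the left, with a median of -0.055. Genes beyond the ends of the x axis are not drawn.

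Rab27b had the lowest p of the 57 Rabs and was singled out by these same values. Among the synaptic vesicle Rabs its difference was the largest in size, with Rab3c next at -0.34. RAB27B acts beside RAB3 in the docking of secretory vesicles and is found on synaptic vesicles. Its log2 signal was 5.89, 5.86 and 6.00 for controls 1, 2 and 3, against 5.35, 5.56 and 5.70 for the cKO replicates taken likewise. All 3 cKO arrays lay below all 3 controls, and cKO replicate 1 was the lowest. The difference was -0.38 (standard error 0.11, 95% interval -0.63 to -0.13, unadjusted p = 0.00923 from limma). With 1 array left out in turn the unadjusted p from limma stayed between 0.00455 and 0.0362, and without cKO replicate 1 the difference was -0.29. Rph3a encodes rabphilin, an effector of RAB3A that also binds RAB27, and was the only one of 44 measured effector genes with an unadjusted p under 0.05, where 1.87% of all genes were lower at that p. Its signal was 9.23, 9.24 and 9.27 (controls) against 9.01, 8.94 and 8.76 (cKO), again without overlap, as for 4.24% of all genes on the lower side. The difference was -0.35 (standard error 0.088, 95% interval -0.55 to -0.14, unadjusted p = 0.00588 from limma). The striatal, interneuron and myelin markers given above had lower means in the cKO arrays, and the astrocyte markers higher ones. Of 4 markers of excitatory neurons 2 were higher and 2 lower, and of 5 of neurons at large 3 were higher and 2 lower. The part of all these markers in the values of Rab27b and Rph3a was not tested.

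The RAB3 proteins sit on synaptic vesicles in their GTP-bound form and leave them at release. Rab3a, the main isoform of the brain, was at 8.89, 8.79 and 8.86 (controls) against 9.03, 8.84 and 8.83 (cKO), so the groups overlapped. The difference was 0.055 (standard error 0.085, 95% interval -0.15 to 0.26, unadjusted p = 0.543 from limma). Rab3c was the most variable of the isoforms. It was at 9.03, 9.56 and 9.52 for controls 1, 2 and 3, against 8.59, 9.14 and 9.37 for the cKO replicates taken likewise. Both arrays numbered 1 were lowest in their group, and the groups overlapped. The difference was -0.34 (standard error 0.23, 95% interval -0.88 to 0.20, unadjusted p = 0.179 from limma). Rab3c was read by 4 clusters, and the dimmer ones differed by -0.31, -0.21 and -0.20, so all 4 had a lower mean in the cKO arrays. With a term for the arrays numbered 1 in the fit, Rab3c had an unadjusted p of 0.00810 from limma at the same difference (adjusted p 0.665). Without cKO replicate 1 Rab3c differed by -0.12, and without control replicate 1 by -0.51. Rab3b, another isoform, was high in both arrays numbered 1, at 8.61 and 8.59, where the remaining 4 ran from 8.14 to 8.26. Its difference was 0.022 (95% interval -0.36 to 0.41). Rab3d, best known from secretory cells outside the brain, differed by -0.022 (95% interval -0.23 to 0.19). Rab37, a secretory granule Rab, reached 5.58 in cKO replicate 1 against 4.55 to 5.13 in the other arrays, so its mean difference of 0.037 rests on that array and was -0.27 without it. Of the 6 Rabs listed for synaptic vesicles, 3 were higher and 3 lower, and their median was 6.0e-05. That median depends on counting Rab3d and Rab37. The rest were Rab27b at -0.38, Rab3c at -0.34, Rab3b at 0.022 and Rab3a at 0.055.

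**Figure D3:**
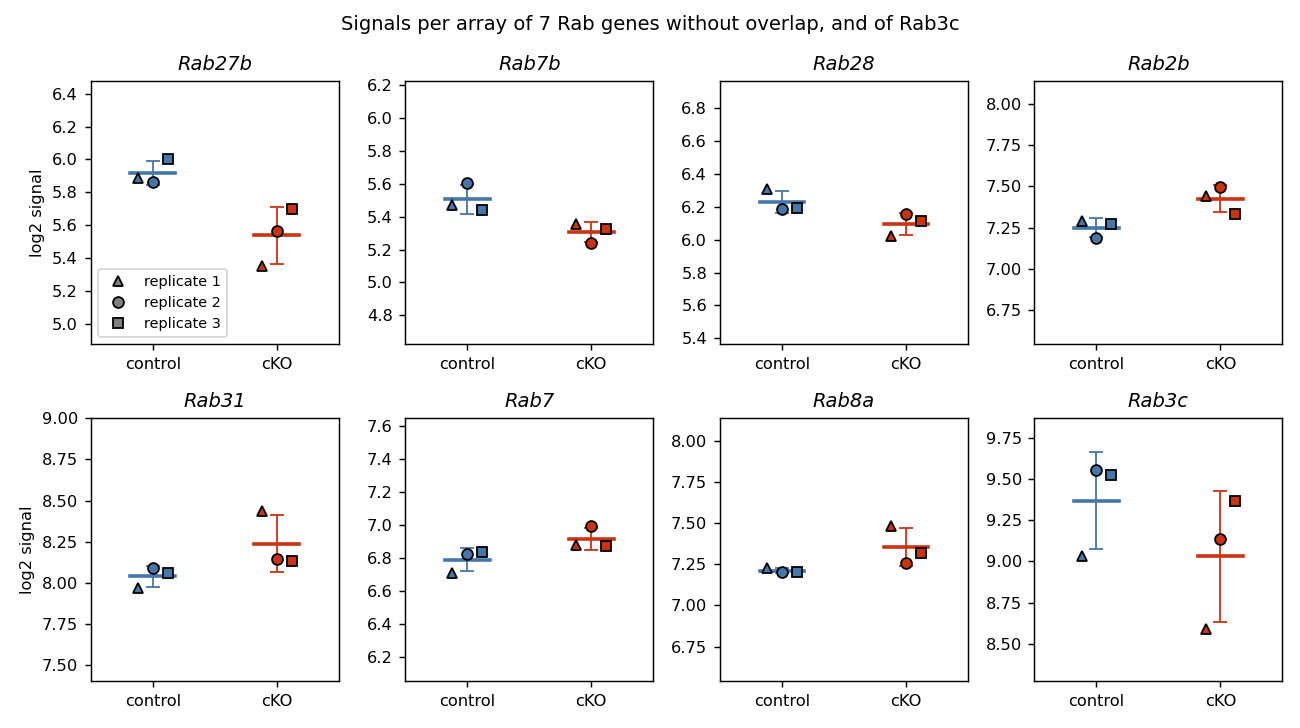
Log2 signal (y axis, each panel spanning the same range) in the 3 control and 3 cKO arrays for the 7 Rab genes without overlap between the groups and for Rab3c. Symbols mark the replicate number, the thick bar the mean and the thin bar the SD (n = 3), and Rab27b shows the widest gap while the replicates of Rab3c spread over more than the difference of its means.

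The late endosome Rabs held both a higher and a lower gene. Rab7, which governs the maturation of endosomes and their fusion with lysosomes and autophagosomes, was at 6.71, 6.82 and 6.83 for controls 1, 2 and 3, against 6.88, 6.99 and 6.87 for the cKO replicates taken likewise. No control array reached a cKO array, by a narrow margin between control replicate 3 and cKO replicate 3. The difference was 0.13 (standard error 0.078, 95% interval -0.059 to 0.31, unadjusted p = 0.151 from limma). Rab7b, a separate gene whose product acts between late endosomes and the Golgi, ran the other way. Its signal was 5.47, 5.61 and 5.44 (controls) against 5.35, 5.24 and 5.32 (cKO), and all cKO arrays were the lower ones. The difference was -0.20 (standard error 0.080, 95% interval -0.39 to -0.010, unadjusted p = 0.0416 from limma). With 1 array left out in turn its unadjusted p from limma ranged from 0.0391 to 0.154 and stayed under 0.05 only without cKO replicate 1. A second, dimmer cluster of Rab7b differed by -0.055 (standard error 0.29) with overlapping groups, and with the mean of both clusters Rab7b differed by -0.13 (unadjusted p = 0.480 from limma). Rab9, whose product returns mannose 6-phosphate receptors from late endosomes to the Golgi, and its paralog Rab9b both lie on the X chromosome. They differed by 0.046 and 0.052, with 95% intervals of -0.16 to 0.25 and -0.19 to 0.29. A second cluster of Rab9, with a mean signal of 2.48, had a difference of 0.52 (standard error 0.16) without overlap between the groups.

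Early endosomes are built by RAB5, which recruits EEA1 and the lipid kinase VPS34, with RAB21, RAB22A and RAB31 on the same membranes. Of the 6 genes, 5 had a higher mean in the cKO arrays, with a median of 0.059. Their median deviation from the control mean was 0.28 in cKO replicate 1, but 0.037 and -0.011 in cKO replicates 2 and 3. In the controls it was -0.067, 0.042 and 0.012. Rab31, active between the Golgi and endosomes, was at 7.97, 8.09 and 8.06 for controls 1, 2 and 3, against 8.44, 8.14 and 8.13 for the cKO replicates taken likewise. The cKO arrays lay above the controls, and cKO replicate 1 was well above the rest. The difference was 0.20 (standard error 0.10, 95% interval -0.049 to 0.44, unadjusted p = 0.0999 from limma). Without cKO replicate 1 the difference of Rab31 was 0.097. Rab22a was at 6.55, 6.77 and 6.66 (controls) against 6.97, 6.89 and 6.63 (cKO), and cKO replicate 3 fell among the controls. The difference was 0.18 (standard error 0.11, 95% interval -0.091 to 0.44, unadjusted p = 0.162 from limma). Rab5a, the most studied isoform, was the only one of the 6 with a lower mean. It was at 7.33, 7.53 and 7.62 (controls) against 7.37, 7.32 and 7.44 (cKO). Control replicate 1 was as low as the cKO arrays, so the groups overlapped. The difference was -0.12 (standard error 0.097, 95% interval -0.35 to 0.11, unadjusted p = 0.264 from limma). Its paralogs Rab5b and Rab5c differed by 0.043 (95% interval -0.41 to 0.50) and 0.075 (95% interval -0.17 to 0.32). Rab5b reached 5.78 in cKO replicate 1, where the remaining arrays ran from 5.04 to 5.38. Rab21, which carries integrins, differed by 0.027 (95% interval -0.16 to 0.21).

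The promoters of Rab5a and Rab21 are shown because both hold the letters CACGTG preceded by GT and followed by AC, the CLEAR motif through which the factor TFEB acts on genes of lysosomes and autophagy, and those of Rab7, Rab8a, Rab31 and Rab2b because these 4 genes were higher in every cKO array. Each is the 250 bases before the gene's first listed start in RefSeq (GRCm38.p6), written 5′ to 3′ on the gene's strand. Capitals mark the CLEAR motif and the cyclic AMP response element (TGACGTCA) in Rab5a, the CLEAR motif in Rab21, and the CCAAT box (CCAAT) and GC box (GGGCGG), or their complements, in the other 4.
Rab5a: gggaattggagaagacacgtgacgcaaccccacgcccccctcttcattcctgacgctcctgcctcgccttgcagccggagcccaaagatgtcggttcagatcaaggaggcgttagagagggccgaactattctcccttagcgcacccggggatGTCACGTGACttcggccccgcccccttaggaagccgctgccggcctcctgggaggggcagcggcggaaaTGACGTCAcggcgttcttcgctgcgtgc
Rab21: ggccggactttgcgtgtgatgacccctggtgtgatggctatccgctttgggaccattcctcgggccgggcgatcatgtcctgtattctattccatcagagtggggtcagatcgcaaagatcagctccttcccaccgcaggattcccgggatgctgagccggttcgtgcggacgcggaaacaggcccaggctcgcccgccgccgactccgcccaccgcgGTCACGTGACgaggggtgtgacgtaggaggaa
Rab7: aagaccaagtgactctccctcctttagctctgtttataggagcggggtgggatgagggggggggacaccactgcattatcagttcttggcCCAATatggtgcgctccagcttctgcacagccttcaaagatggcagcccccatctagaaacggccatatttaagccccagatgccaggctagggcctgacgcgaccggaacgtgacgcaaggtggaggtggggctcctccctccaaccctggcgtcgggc
Rab8a: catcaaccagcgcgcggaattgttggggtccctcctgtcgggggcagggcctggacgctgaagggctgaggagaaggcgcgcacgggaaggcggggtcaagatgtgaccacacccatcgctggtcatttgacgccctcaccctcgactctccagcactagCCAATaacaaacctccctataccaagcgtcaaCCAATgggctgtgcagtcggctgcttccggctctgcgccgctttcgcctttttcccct
Rab31: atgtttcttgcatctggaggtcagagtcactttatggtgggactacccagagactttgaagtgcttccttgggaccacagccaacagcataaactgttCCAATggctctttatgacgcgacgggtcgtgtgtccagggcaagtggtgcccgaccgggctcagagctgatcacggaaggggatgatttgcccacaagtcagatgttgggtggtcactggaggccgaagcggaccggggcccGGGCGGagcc
Rab2b: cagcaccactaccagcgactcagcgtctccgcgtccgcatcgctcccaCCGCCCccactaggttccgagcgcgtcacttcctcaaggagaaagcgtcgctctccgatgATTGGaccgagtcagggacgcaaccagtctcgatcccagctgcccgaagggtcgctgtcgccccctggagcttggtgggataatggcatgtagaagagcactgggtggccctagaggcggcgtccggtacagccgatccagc
They lie at chr17:53478984-53479233, plus strand (Rab5a), chr10:115315592-115315841, minus strand (Rab21), chr6:88045271-88045520, minus strand (Rab7), chr8:72160950-72161199, plus strand (Rab8a), chr17:65772753-65773002, minus strand (Rab31) and chr14:52279396-52279645, minus strand (Rab2b). The CLEAR letters begin at position -97 in Rab5a and -32 in Rab21, counted back from the start, and the cyclic AMP response element of Rab5a begins at position -28. For Rab21 the first listed start is not the outermost. Its gene spans chr10:115289862-115317419 in RefSeq, so the window shown lies inside the gene.

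RefSeq gave promoters for 47 of the 57 Rab genes, in 59 windows of 250 bases, since a gene can have several starts. Searched on both strands, the CLEAR letters were in 2 of the 59 Rab windows (3.39%) and in 0.240% of all 32851 windows. The shorter E-box CACGTG, which lies within the CLEAR letters, was in 5 Rab windows (Rab5a, Rab20, Rab21, Rab23 and Rab27a), or 8.47% beside 6.02% of all windows. The cyclic AMP response element was in 2 Rab windows, those of Rab5a and Rab25 (3.39%), beside 1.55% of all. GC boxes were in 39 Rab windows (66.1%) beside 32.7% of all, and CCAAT boxes in 23 (39.0%) beside 33.8%. A match of letters is a description and not a site. The 2 genes with the CLEAR letters had differences of opposite sign, -0.12 for Rab5a and 0.027 for Rab21, each with an interval that held 0.

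Recycling Rabs bring receptors back from endosomes to the surface, RAB4 by the fast route and RAB11 by the slow route through the recycling endosome. Of 9 genes, 4 were higher and 5 lower, with a median of -0.054, and none was without overlap. Rab11a was at 7.11, 7.49 and 7.46 for controls 1, 2 and 3, against 7.22, 7.59 and 7.43 for the cKO replicates taken likewise. Both arrays numbered 1 were the lowest, and the remaining 4 gave no order by genotype. The difference was 0.063 (standard error 0.14, 95% interval -0.27 to 0.40, unadjusted p = 0.668 from limma). Its paralog Rab11b, which is enriched in brain, differed by 0.018 (95% interval -0.27 to 0.31) with the same low values in both arrays numbered 1. Rab15, a Rab of neural recycling endosomes, had the lowest p of the 9, with a signal of 7.15, 6.97 and 7.15 (controls) against 7.05, 6.99 and 6.84 (cKO). Only cKO replicate 3 lay below all controls. The difference was -0.13 (standard error 0.092, 95% interval -0.35 to 0.086, unadjusted p = 0.195 from limma). Rab4a was at 5.56, 5.61 and 5.43 (controls) against 5.85, 5.66 and 5.48 (cKO), and cKO replicate 1 was the highest array. The difference was 0.14 (standard error 0.11, 95% interval -0.13 to 0.40, unadjusted p = 0.268 from limma). Rab4b, its paralog, ran from 6.01 in control replicate 1 to 5.14 in cKO replicate 3 and differed by -0.13 (95% interval -0.65 to 0.38), and the difference between the paralogs was not tested. Rab35, which acts in fast recycling and in the outgrowth of neurites, differed by -0.096, and Rab14, which links the Golgi with endosomes, by -0.071. The epithelial Rabs Rab17 and Rab25 differed by -0.054 and 0.035, and the signals of Rab25, Rab19 and Rab20 were in the lowest 25% of genes by mean signal.

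In the Golgi group, Rab2b was the gene furthest from 0. RAB2 proteins act between the endoplasmic reticulum and the Golgi, and in the fusion of autophagosomes with lysosomes. The log2 signal of Rab2b was 7.29, 7.19 and 7.27 for controls 1, 2 and 3, against 7.44, 7.50 and 7.33 for the cKO replicates taken likewise. All cKO arrays were above all controls, with cKO replicate 3 closest to them. The difference was 0.17 (standard error 0.079, 95% interval -0.011 to 0.36, unadjusted p = 0.0618 from limma). Dimmer clusters of Rab2b differed by 0.78 (standard error 0.32) and -0.25 (standard error 0.41), each with overlapping groups. Its paralog Rab2a differed by 0.020 (95% interval -0.19 to 0.23). Rab33a, a Rab of axonal vesicles on the X chromosome, was at 7.46, 7.26 and 7.35 (controls) against 7.72, 7.38 and 7.48 (cKO). cKO replicate 1, the array with the Xist signal, was the highest, and the groups overlapped. The difference was 0.17 (standard error 0.11, 95% interval -0.094 to 0.43, unadjusted p = 0.173 from limma). The product of Rab33b binds ATG16L1, which acts in the same conjugation system as ATG7. Rab33b was at 6.90, 6.82 and 6.78 (controls) against 7.05, 6.85 and 6.77 (cKO), so the groups overlapped and both arrays numbered 1 were the highest. The difference was 0.058 (standard error 0.095, 95% interval -0.17 to 0.28, unadjusted p = 0.563 from limma). Rab1a and Rab1b, which start the route from the endoplasmic reticulum to the Golgi, differed by 0.0092 (95% interval -0.45 to 0.47) and -0.066 (95% interval -0.25 to 0.12). Rab6b, the neuronal isoform of the Golgi Rab RAB6, differed by -0.043, and its ubiquitous paralog Rab6a by -0.093. Rab34 differed by -0.086 and Rab30 by 0.074. Rab19, one of the 3 dim Rabs, Rab36 and Rab43 differed by 0.027, 0.021 and 0.027. Of 13 Golgi Rabs, 9 were higher and 4 lower, with a median of 0.021 and every 95% interval within -0.5 to 0.5.

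Among the 19 other Rabs, 5 were higher and 14 lower, with a median of -0.050. Rab8a, which carries vesicles to the surface and to the base of the cilium, was at 7.23, 7.20 and 7.20 for controls 1, 2 and 3, against 7.48, 7.26 and 7.32 for the cKO replicates taken likewise. The controls were nearly the same, and cKO replicate 2 was only just above them. The difference was 0.14 (standard error 0.083, 95% interval -0.053 to 0.34, unadjusted p = 0.128 from limma). Without cKO replicate 1 this difference was 0.079. Its paralog Rab8b differed by -0.059 (95% interval -0.29 to 0.17). Rab3ip encodes Rabin8, the exchange factor for RAB8, and was at 6.68, 6.57 and 6.61 (controls) against 6.44, 6.47 and 6.37 (cKO). Here every cKO array was below every control, as for 4.24% of all genes. The difference was -0.19 (standard error 0.074, 95% interval -0.37 to -0.016, unadjusted p = 0.0367 from limma). Rab28, a Rab of photoreceptors and cilia, was at 6.31, 6.19 and 6.19 (controls) against 6.02, 6.15 and 6.12 (cKO). The gap between the groups was narrow, between control replicate 2 and cKO replicate 2. The difference was -0.13 (standard error 0.077, 95% interval -0.31 to 0.053, unadjusted p = 0.137 from limma). Rab24, which is found on autophagosomes, was at 6.85, 6.72 and 6.79 (controls) against 6.51, 6.81 and 6.76 (cKO). Its lowest array was cKO replicate 1, and the other cKO arrays fell among the controls. The difference was -0.092 (standard error 0.099, 95% interval -0.33 to 0.14, unadjusted p = 0.383 from limma). Rab42 and Rab27a, whose product is the paralog of RAB27B, differed by -0.36 and -0.14, with wide 95% intervals of -0.99 to 0.26 and -0.50 to 0.21. Rab38 and Rab32, which serve melanosomes and related organelles, differed by 0.16 and 0.0019, and the dim Rab20 by -0.024. Rab39b, an X-linked gene of intellectual disability in humans, differed by -0.048 (95% interval -0.26 to 0.17). Rab10, which acts in the growth of axons and dendrites, differed by -0.021 (95% interval -0.20 to 0.16). Rab12 differed by -0.020, Rab13 by 0.071, Rab44 by 0.031, Rab23 by -0.052, Rab29 by -0.069, Rab18 by -0.063, Rab40b by -0.050 and Rab40c by -0.060.

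Both arrays numbered 1 stood apart for many Rabs. For 25 of the 57 Rabs (43.9%) both arrays numbered 1 lay outside the range of the other 4 arrays, beside 33.7% of all genes. Of these, 16 were above (23.4% of all genes) and 9 below (10.2% of all genes). Below were Rab3c, Rab1a, Rab11a, Rab11b, Rab14, Rab6a, Rab8b, Rab2a and Rab10. The mean of both arrays minus that of the other 4 was -0.58 for Rab3c, -0.49 for Rab1a and -0.33 for Rab11a. Rab1a was at 7.05, 7.37 and 7.45 (controls) against 6.89, 7.49 and 7.52 (cKO), so its arrays numbered 1 were low in both groups while the group means were nearly equal. Above were, among others, Rab42, Rab4b, Rab3b, Rab5b and Rab27a, by 0.57, 0.51, 0.41, 0.39 and 0.37. The labels give no batch for these arrays, and cKO replicate 1 is also the array with the Xist signal.

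**Figure D4:**
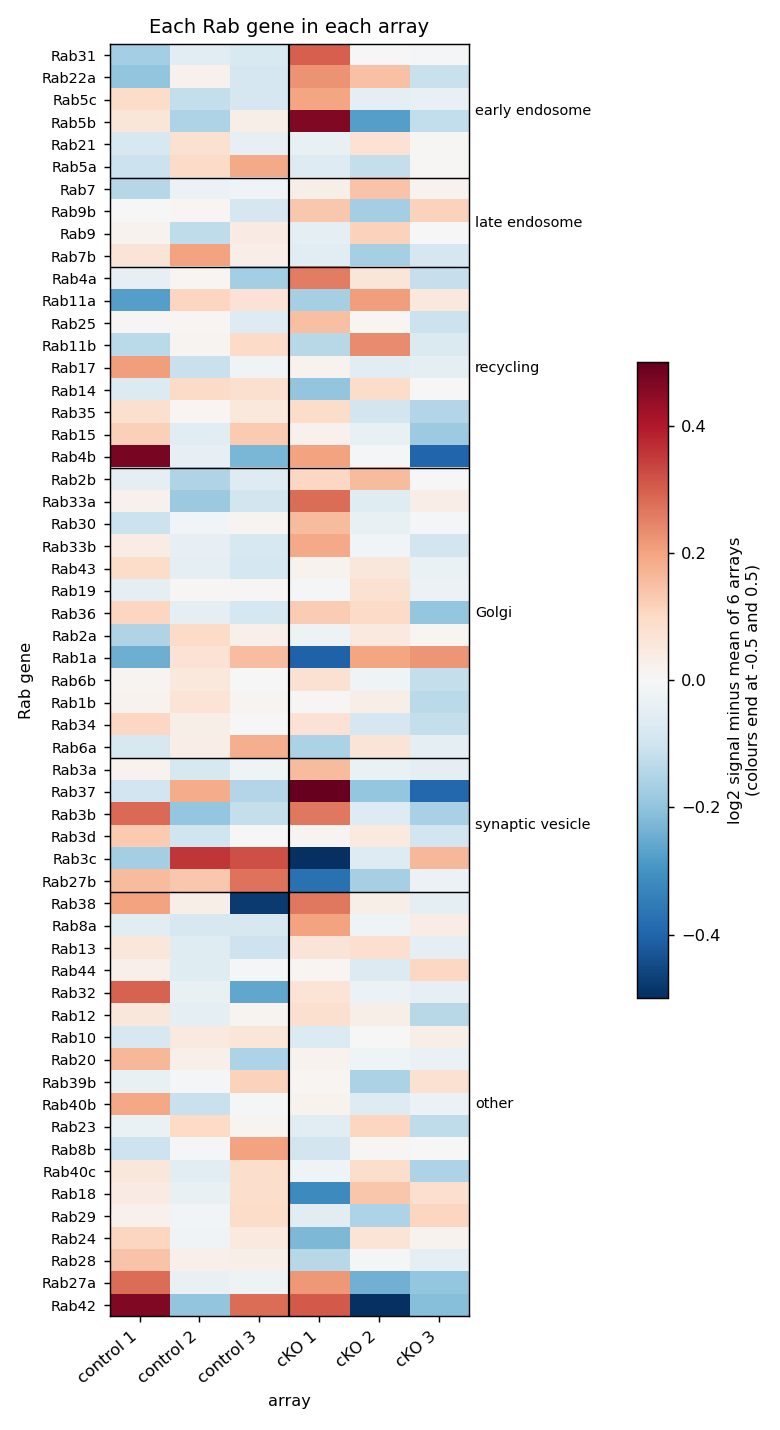
Log2 signal of each of 57 Rab genes (rows, grouped by compartment) in each of the 6 arrays (columns) minus its mean over the arrays, with colours ending at -0.5 and 0.5. Control replicate 1 and cKO replicate 1 share a colour in rows such as Rab1a, Rab11a, Rab3b and Rab4b, and Rab27b is red in all 3 controls and blue or near white in the 3 cKO arrays.

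The genes that act on Rabs were given by lists of 4 roles. Of 7 measured genes of prenylation and extraction from membranes, among them Gdi2, the GDP dissociation inhibitor, at 0.031, and Chm, the escort protein of prenylation, at -0.14, 4 were higher and 3 lower, and none had an unadjusted p under 0.05 from limma. Of 38 exchange factor genes, 20 were higher and 18 lower, with a median of 0.0066, and 0 higher and 1 lower, Rab3ip, had an unadjusted p under 0.05 (2.09% and 1.87% of all genes). Rin1, an exchange factor for RAB5, was at 6.85, 6.48 and 6.49 (controls) against 6.35, 6.43 and 6.35 (cKO). It lay below the controls in every cKO array, with a difference of -0.23 (standard error 0.11, unadjusted p = 0.0878 from limma). Of 34 genes of GTPase-activating proteins, 13 were higher and 21 lower, with a median of -0.020. The only one with an unadjusted p under 0.05 (3.96% of all genes), Tbc1d1, acts on RAB8 and RAB10 in the insulin response of muscle and was at 5.84, 5.85 and 5.85 for controls 1, 2 and 3, against 6.00, 6.14 and 6.02 for the cKO replicates taken likewise. Its controls were nearly the same and all cKO arrays lay above them, as for 4.15% of all genes. The difference was 0.20 (standard error 0.073, 95% interval 0.027 to 0.37, unadjusted p = 0.0294 from limma). With 1 array left out in turn the unadjusted p from limma ranged from 0.0218 to 0.0993 for Tbc1d1 and from 0.0451 to 0.113 for Rab3ip. Of 44 effector genes, 11 were higher and 33 lower (75.0%), with a median of -0.055, while 52.5% of all genes tested were lower. Rph3a had the lowest p, followed by Gcc2, which encodes a golgin tether, at -0.22 (95% interval -0.47 to 0.021), and Sytl5, which encodes a synaptotagmin-like binder of RAB27, at -0.47 (95% interval -0.98 to 0.044). Uso1, the tether p115 that RAB1 recruits, was lower in every cKO array, with a difference of -0.094. Of the 44 effector genes, 0 were higher and 2 lower in every cKO array, beside 4.15% and 4.24% of all genes. The adjusted p from limma was 0.9995 to 0.9998 for every gene of the 4 lists. Without control replicate 3 or without cKO replicate 1, 29 of the 44 effector genes were lower.

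Of the 17 further clusters of 11 Rab genes, 12 differed in the same direction as the brighter cluster of their gene. Those of Rab10 and Rab12 differed by -0.037 and -0.014 and those of Rab11b and Rab27a by 0.15 and 0.24, the last opposite in sign to its brighter cluster. The 3 dimmer clusters of Rab1a differed by -0.40, 0.069 and -0.39, none without overlap, and that of Rab34 by -0.51 with a standard error of 0.46. The dimmer clusters of Rab42 differed by -0.32 and 0.23. A dimmer cluster of Rab3c, at -0.21 (standard error 0.081), was also without overlap between the groups.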

How the data were processed

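Total RNA of 3 control and 3 cKO samples was hybridised to mouse exon arrays. The deposited values are log2 signals of 101175 transcript clusters, made by the authors, summarised per cluster and analysed with GeneSpring per the methods of the paper. The methods of summarisation and normalization and the genome build are not stated in any source used here. A table of the authors' own fold changes and p-values was not used. Clusters with 1 symbol in the array annotation (22773) were kept, symbols were updated through RefSeq, the brightest cluster of a gene was taken, and the cluster of Atg7, which carries a second symbol, was added, which gave 19700 genes without a filter on dim genes. Differences are cKO minus control, with two-sided moderated tests in limma 3.58.1 (lmFit, eBayes) under R 4.3.3, with Benjamini-Hochberg adjustment over all genes and a threshold of 0.05. The test was checked on simulated data with independent noise, which lack the shared deviation of the arrays numbered 1. Alternatives were quantile normalization, centring on the median, no dim genes (lowest 25%), a trended and robust spread, no moderation, the mean of a gene's clusters, the replicate number as a block, a term for the arrays numbered 1, and each array left out. Leaving out both arrays numbered 1 was added after the values were seen. The members and lists were chosen with earlier results of these data known. Values per array were given for Rabs with an unadjusted p under 0.05 or without overlap, for the 2 of lowest p in each compartment, and for Rab7, Rab5a, Rab3a, Rab11a, Rab24 and Rab33b. Up to 6 genes of each other list with an unadjusted p under 0.05 could be named, and Rin1, Sytl5, Gcc2, Uso1, Gdi2, Chm and the remaining Rabs with single arrays quoted were chosen after their values were seen. The number of arrays limits the precision.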

Additional observations from a re-analysis of the deposited data

How the results depend on the processing

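With 3 arrays a group no Rab passed the adjusted threshold in any setting. At an unadjusted p under 0.05 from limma, 1 Rab was higher in place of 0 after centring on the median (Rab2b) and with the mean of a gene's clusters (Rab9). The brighter cluster of Rab9 differed by 0.046 and the dim one, with a mean signal of 2.48, by 0.52. Without moderation of the spread 1 was also higher (Rab2b). With the mean of clusters 1 in place of 2 was lower, where Rab7b was lost. The shares of all genes at that p in these settings are not given here, so these counts cannot be read against them. At the adjusted threshold 1 gene, Peg10, was called without the lowest 25% of genes and with the mean of clusters, in place of 0. Of all genes, 1280 had an unadjusted p under 0.05 with a term for the arrays numbered 1 and 1267 without both, in place of 780. Without both, 21 Rabs (36.8%) were without overlap, beside 37.7% of all genes.

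The deviations of same-numbered arrays correlated at 0.31, 0.037 and 0.17, and those of arrays with unlike numbers at -0.27 to 0.16. These values do not settle whether the numbers pair the samples, and the reported fit has no term for them. With the replicate number as a block, 1157 genes and 3 Rabs (Rab27b, Rab3c and Rab42, all lower) had an unadjusted p under 0.05, that of Rab7b was 0.0655, and no gene passed the adjusted threshold.

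With 1 array left out in turn, 0 to 2 of the 57 Rabs were higher and 1 to 3 lower at an unadjusted p under 0.05 from limma. Of all 19700 genes, 615 to 1510 were under that p in either direction, the last without cKO replicate 1. From 8 to 14 Rabs (14.0% to 24.6%) were without overlap, beside 15.1% to 26.9% of all genes. From 22 to 32 Rabs had a higher mean and from 29 to 34 effector genes a lower mean. The median difference ranged from -0.031 to 0.020 over all Rabs, from -0.0046 to 0.049 for the Golgi Rabs, from 0.024 to 0.13 for the early endosome, from 0.032 to 0.065 for the late endosome, from -0.075 to 0.029 for recycling, from -0.11 to 0.056 for synaptic vesicles and from -0.063 to -0.032 for the other Rabs.

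No Rab that turned its direction had an unadjusted p under 0.05 in the reported fit, and the cause was not tested. Rab32 was at -0.0031 after quantile normalization, and with the mean of clusters Rab1a was at -0.18 and Rab27a at 0.045. Without both arrays numbered 1, the differences were 0.015 for Rab17, 0.085 for Rab18, 0.038 for Rab20, 0.028 for Rab24, -0.021 for Rab25, -0.032 for Rab2a, -0.022 for Rab30, -0.31 for Rab37, 0.025 for Rab3d, 0.013 for Rab40b and -0.14 for Rab5b. With 1 array left out in turn, the ranges that crossed 0 were Rab10 -0.066 to 0.0067, Rab11a -0.059 to 0.16, Rab11b -0.096 to 0.092, Rab12 -0.065 to 0.045, Rab14 -0.13 to 0.0098, Rab17 -0.12 to 0.036, Rab18 -0.15 to 0.080, Rab19 -0.0046 to 0.049, Rab1a -0.11 to 0.21, Rab20 -0.11 to 0.053, Rab21 -0.0049 to 0.073, Rab25 -0.031 to 0.098, Rab2a -0.050 to 0.073, Rab32 -0.13 to 0.15, Rab33b -0.023 to 0.12, Rab36 -0.039 to 0.12, Rab37 -0.27 to 0.24, Rab38 -0.033 to 0.31, Rab39b -0.097 to 0.019, Rab3a -0.011 to 0.091, Rab3b -0.10 to 0.17, Rab3d -0.078 to 0.037, Rab40b -0.12 to 0.034, Rab40c -0.12 to 0.0033, Rab43 -0.010 to 0.080, Rab44 -0.012 to 0.073, Rab4b -0.28 to 0.068, Rab5b -0.18 to 0.19, Rab5c -0.0053 to 0.14, Rab6b -0.091 to 0.0057, Rab8b -0.13 to 0.027, Rab9 -0.0072 to 0.079, Rab9b -0.0029 to 0.15. Of the Rab differences, 290 kept and 52 turned their direction with an array left out, 13 of these without cKO replicate 1 and 12 without control replicate 1. In the 4 other settings that can change a difference, 214 kept and 14 turned it, and 5 settings leave every difference as it was by construction.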
